A study of Mus musculus with 47 samples.

Results

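The ileum and the duodenum of conventionally raised (convR) mice were compared by RNA sequencing, with 12 ileum libraries set against 12 duodenum libraries, which are 24 of the 47 libraries of the series. The members were all libraries of these groups in the raw exon count table, and all genes of that table entered the tests. The ileum libraries came from male C57BL/6J mice with a normal flora, aged 15 to 16 weeks and fed ad libitum, and were sampled over a day at ZT2, ZT6, ZT10, ZT14, ZT18 and ZT22 (ZT counts the hours since the lights came on), with 2 libraries at each time. The duodenum libraries came from mice of the same strain, sex, age, feeding and flora, again with 2 libraries at each of the 6 times. The remaining libraries, 11 of ileum and 12 of duodenum, came from germ-free (GF) mice of the same description and are used in the comparison by flora. From each sample 250 ng of total RNA was depleted of ribosomal RNA and made into a stranded library. Neither the libraries nor their labels separate epithelium from the rest of the gut wall, so that fewer cells of a type and less RNA per cell cannot be told apart in any value given here. Nothing in the labels says that the 2 libraries of a time are separate animals, and p-values measure the spread between these libraries.

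The duodenum receives food together with bile and pancreatic juice, and its absorptive cells are known for taking up iron, calcium, sugars, fat and folate. The ileum is the last stretch of the small intestine, where bile acids and the vitamin B12 complex are reclaimed and where Paneth cells, which secrete antimicrobial peptides at the crypt base, are most numerous. Bile acids taken up there bind the nuclear receptor FXR, which switches on the hormone FGF15, and FGF15 in turn represses bile acid synthesis in the liver. The identity of each stretch is kept by transcription factors, among them GATA4, PDX1 and ONECUT2 towards the stomach and the more posterior Hox genes towards the colon.

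Counts assigned to genes summed to between 29116403 and 41911085 per library in ileum (median 31049989) and between 25953783 and 41059003 in duodenum (median 34253987). Values below are CPM, the counts of a gene as a rate over all counts of its library, after TMM scaling of library sizes, and differences are log2, ileum minus duodenum, from edgeR's quasi-likelihood fit with time as a factor. A gene is called at a Benjamini-Hochberg adjusted p under 0.05 over all 18164 genes tested, and is called strong where the log2 difference is also at least 1. Some duodenum libraries carried transcripts of neighbouring organs. The summed level of 21 pancreatic acinar enzymes, a subset of the marker list chosen after its values were seen, was 5.68 to 7.5 CPM in the ileum libraries (median 6.96) and 7.67 to 5166 CPM in the duodenum libraries (median 364). It was highest in the duodenum libraries of ZT22 replicate 2 (5166 CPM) and ZT14 replicate 2 (3495 CPM). The summed level of 16 stomach markers was 1.35 to 3.15 CPM in ileum (median 2.2) and 6.57 to 12681 CPM in duodenum (median 13.6), and the highest value was that of ZT14 replicate 1. Acinar and stomach genes, and those of the Brunner glands of the proximal duodenum, are therefore not named as differences between the tissues. Each count of genes was repeated without 5 libraries that an earlier analysis of these data had found to stand apart, namely the duodenum libraries of ZT6 replicate 1, ZT14 replicates 1 and 2 and ZT22 replicate 2, and the ileum library of ZT6 replicate 2. Acinar transcripts also stood at 697 to 1659 CPM in 4 duodenum libraries that were kept in that repeat, the 2 of ZT2 and the second of ZT6 and of ZT18.

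Both tissues differed in a large part of what they transcribe. Of the 18164 genes tested, 9015 were called (49.6%), 4515 of them higher in ileum (24.9%) and 4500 lower (24.8%). The strong differences numbered 1664 (9.16%), with 782 higher (4.31%) and 882 lower (4.86%), and 1606 of these 1664 were called again without the 5 libraries. In 1411 genes (7.77%) the 12 libraries of one tissue lay entirely above the 12 of the other. Called genes with a log2 difference of 4 or more numbered 36 on the ileum side and 52 on the duodenum side. The sign was the same at all 6 times for 7680 of the 9015 called genes and for 1633 of the 1664 strong ones. The counts of gene lists given below stand beside these shares, and a list with about 24.9% of its genes higher or 24.8% lower is at the level of all genes in that direction.

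Among the genes that the naming rule admits (given with the processing), Fabp6 differed most on the ileum side. Fabp6 encodes the cytosolic bile acid binding protein of the enterocyte. It ran from 212 to 3890 CPM in the ileum libraries (median 3099) and from 0.25 to 1.96 CPM in the duodenum libraries (median 0.838), a log2 difference of 11.52 ± 0.54 (SE, adjusted p = 2.41e-12). No library of one tissue came near the other, although the ileum library of ZT6 replicate 2, at 212 CPM, lay far below the next lowest, at 2254 CPM. Fgf15, the bile acid induced hormone, was at 9.05 to 63.5 CPM in ileum (median 23.7), while the 12 duodenum libraries held 4 Fgf15 reads in all. On the duodenum side the gene that differed most among those admitted was Tmprss15, which encodes enteropeptidase, the brush border protease that activates trypsinogen. Its level was 0 to 0.321 CPM in ileum (median 0.145) and 47.9 to 631 CPM in duodenum (median 339), a log2 difference of -11.22 ± 0.42 (adjusted p = 1.92e-13). Every duodenum library was above every ileum library by a wide margin. The promoters of 2 genes of the ileum side and 2 of the duodenum side are shown here as examples of genes with large differences. Fabp1 is not among the 10 largest falls. Each is the RefSeq window of GRCm38.p6 from 250 bases before to 50 bases after the annotated start, 5′ to 3′ on the gene's strand. Fabp6 is at chr11:43601513-43601812 (minus strand), Slc10a2 at chr8:5105238-5105537 (minus), Tmprss15 at chr16:79091048-79091347 (minus) and Fabp1 at chr6:71199629-71199928 (plus). Capitals mark matches on either strand to the GATA factor motif, written NGATAA with A or T as its first letter, to TTTATG, the motif of CDX factors, and to CAAAGTCCA, that of HNF4 factors. These motifs do not overlap one another in the windows shown.
Fabp6: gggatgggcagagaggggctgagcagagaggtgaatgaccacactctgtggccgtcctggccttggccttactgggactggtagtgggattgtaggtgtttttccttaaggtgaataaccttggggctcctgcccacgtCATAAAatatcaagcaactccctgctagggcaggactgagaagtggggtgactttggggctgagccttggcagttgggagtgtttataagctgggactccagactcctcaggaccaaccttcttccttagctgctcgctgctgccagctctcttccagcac
Slc10a2: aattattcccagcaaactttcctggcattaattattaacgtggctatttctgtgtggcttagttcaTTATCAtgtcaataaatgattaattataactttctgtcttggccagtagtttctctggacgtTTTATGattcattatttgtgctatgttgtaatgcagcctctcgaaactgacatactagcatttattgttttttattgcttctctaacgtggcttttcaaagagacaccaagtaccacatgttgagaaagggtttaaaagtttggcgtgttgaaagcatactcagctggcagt
Tmprss15: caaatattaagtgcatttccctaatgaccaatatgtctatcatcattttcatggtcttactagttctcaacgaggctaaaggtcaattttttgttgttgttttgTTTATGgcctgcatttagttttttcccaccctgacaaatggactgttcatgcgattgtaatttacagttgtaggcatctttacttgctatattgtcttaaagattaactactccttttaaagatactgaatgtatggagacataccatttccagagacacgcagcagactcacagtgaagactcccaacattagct
Fabp1: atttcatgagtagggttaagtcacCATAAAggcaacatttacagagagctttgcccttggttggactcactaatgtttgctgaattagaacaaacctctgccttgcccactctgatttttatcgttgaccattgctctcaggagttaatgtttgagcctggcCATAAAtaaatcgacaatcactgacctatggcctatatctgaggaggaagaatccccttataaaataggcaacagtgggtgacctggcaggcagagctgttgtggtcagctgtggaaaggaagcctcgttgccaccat
The Slc10a2 window held 1 GATA and 1 CDX match, the Fabp1 window 2 CDX matches, and the Fabp6 and Tmprss15 windows 1 CDX match each. Over all 32851 windows of the table, 18.6% held a GATA match, 11.9% a CDX match and 0.475% an HNF4 match, against 11.4%, 7.03% and 0.513% of the 15201 windows of tested genes. The 32851 windows belong to 27025 genes, so that some genes count more than once, and only 1037 strong genes had a window. All shares here are of windows. A GATA match stood in 14.5% of 647 windows of strongly higher genes and in 19.4% of 650 windows of strongly lower ones. The share was 40% (14 of 35 windows) for genes at least 4 log2 units higher in ileum and 43.9% (18 of 41) for those at least 4 log2 units lower. A CDX match stood in 9.89% of the strongly higher and 9.08% of the strongly lower windows, and an HNF4 match in 0.464% (3 of 647) and 2.46% (16 of 650). The windows differ in base composition, with a median GC content of 49.3% in those 35, 49% in those 41 and 60% in the windows of all tested genes, and a match to so short a motif is a description of the letters only.

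The rest of the 10 largest differences in each direction under the naming rule had varied roles. Plb1, a brush border phospholipase, was at 2.37 to 1208 CPM in ileum (median 788) and 0.332 to 1.06 CPM in duodenum, a log2 difference of 9.79 ± 1.05. Its ileum values were split, with 3 libraries under 10 CPM and 9 at 320 CPM or more, and all 12 lay above the duodenum. Tmigd1, an epithelial adhesion protein, Slc25a48, a mitochondrial carrier, the alpha-defensin Defa32 and the glycosyltransferase Mgat4c had log2 differences of 7.14, 7.04, 6.85 and 6.52, and Slc10a2, Hoxb9 and Hoxc8 are described below. Reads of alpha-defensins can be split between near-identical copies, so that single members of that family are uncertain. Sult6b2, a sulfotransferase, was at 0.0969 to 0.615 CPM in ileum and 82.6 to 1701 CPM in duodenum (log2 -10.51), and Otop3, of the otopetrin proton channel family, at 0 to 0.177 CPM in ileum and 10.2 to 178 CPM in duodenum (log2 -9.70). The alkaline phosphatase Akp3 stood at 0.525 to 2.34 CPM in ileum and 48.8 to 4581 CPM in duodenum (log2 -9.24 ± 0.88). The water channel Aqp8 and the fatty acid hydroxylase Cyp4a10 were lower by 6.60 and 6.42 log2 units, with the glucuronosyltransferase Ugt2b38 and the noncoding RNA St8sia3os at log2 -8.25 and -7.83 on 11 and 8 ileum reads in all. All 20 of these genes kept their calls under every alternative fit that tested them. They were picked among genes that were also called without the 5 libraries and kept their sign, so this was partly fixed in advance. Those near 0 in either tissue passed the filter on low counts through the other tissue alone.

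**Figure D1:**
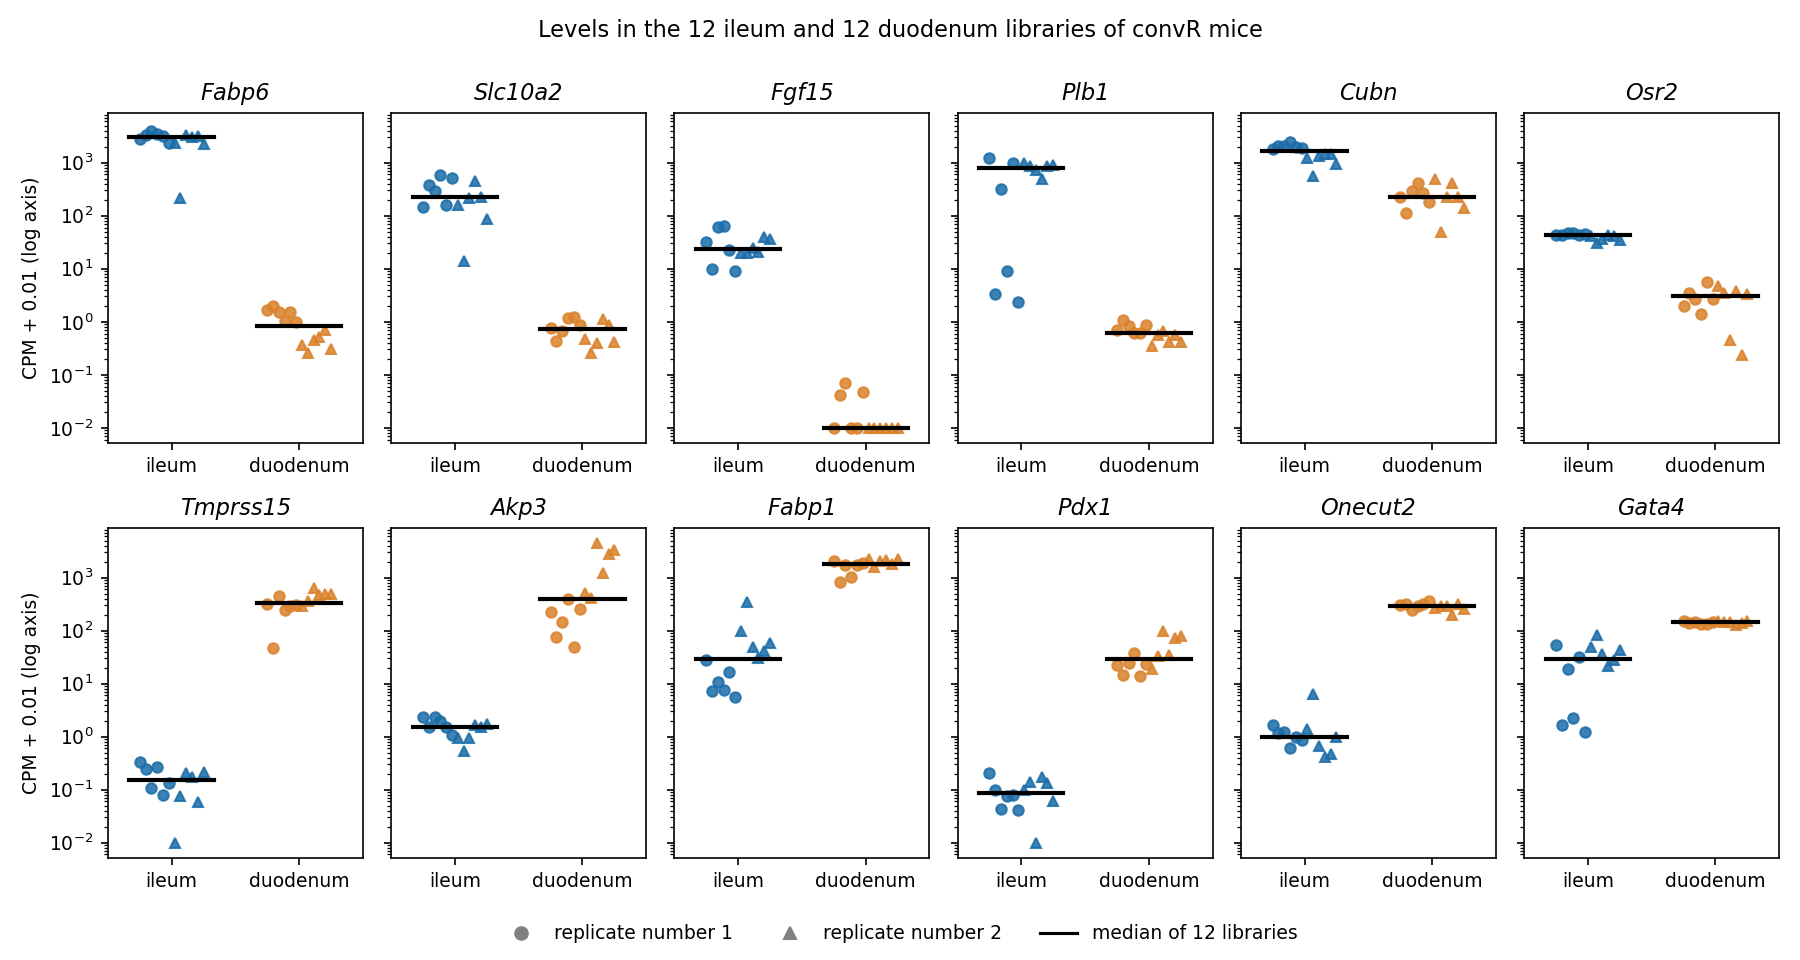
Levels of 12 genes in each convR library, ileum left and duodenum right in each panel, on a log axis of CPM + 0.01, with circles for replicate number 1, triangles for number 2 and a black line at the median of 12. The 2 tissues do not overlap for any gene shown, while Plb1 and Gata4 each have 3 ileum libraries far below the other 9.

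Most genes of bile acid recovery were higher in ileum, from apical uptake to basolateral exit. Of the 10 tested genes of this list, 6 were called higher and 3 lower, all of them strong, beside 24.9% and 24.8% of all genes (4.31% and 4.86% strong), with a median log2 difference of 1.61 against 0.008 over all genes tested. Fgf15 passed the filter on low counts through the ileum alone and could only be higher there. Fabp6 and Slc10a2 were also low in every duodenum library, and Nr0b2 was low in ileum. At the apical membrane the uptake carrier Slc10a2 was at 13.8 to 595 CPM in ileum (median 221) and 0.25 to 1.23 CPM in duodenum (median 0.711), a log2 difference of 8.52 ± 0.52. The basolateral exit carrier is made of Slc51a and Slc51b, at medians of 517 and 173 CPM in ileum and 118 and 49 CPM in duodenum (log2 2.09 ± 0.13 and 1.76 ± 0.17), with no overlap for either. The FXR gene Nr1h4 was 1.46 ± 0.18 higher, and its ranges overlapped. Among the 3 lower genes, the nuclear corepressor Nr0b2, which FXR induces in liver, ran from 0.0647 to 2.28 CPM in ileum (median 0.45) and from 0.597 to 8.64 CPM in duodenum (median 3.13), a log2 difference of -2.57 ± 0.39. The efflux pumps Abcc2 and Abcc3 were lower by 1.05 and 1.38. The canalicular bile salt pump Abcb11 was not called, at medians of 0.358 CPM in ileum and 0.646 CPM in duodenum (adjusted p = 0.275), and was called with the replicate block (adjusted p = 0.031).

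Of the vitamin B12 uptake genes, 4 of 8 were called higher and 2 lower, beside 24.9% and 24.8% of all genes, and without the 5 libraries 4 and 1. Cubn, which encodes cubilin, the receptor for the intrinsic factor-B12 complex, was at 565 to 2421 CPM in ileum (median 1642) and 50.4 to 501 CPM in duodenum (median 226), a log2 difference of 2.82 ± 0.26 with no overlap. Its membrane partner Amn was 1.14 ± 0.13 higher, with medians of 71.6 CPM in ileum and 35.2 CPM in duodenum. The transporters of the next steps differed less: Tcn2, the plasma B12 carrier, was at medians of 279 CPM in ileum and 286 CPM in duodenum and was not called (adjusted p = 0.541), and its receptor Cd320 was lower by 0.55. The other vitamin carriers split by substrate, with 2 of 9 higher and 6 lower. The riboflavin carrier Slc52a3 was at 121 to 235 CPM in ileum and 18.3 to 38.3 CPM in duodenum (log2 2.65 ± 0.12), and the biotin and pantothenate carrier Slc5a6 was 1.73 ± 0.11 higher. The thiamine carrier Slc19a3 was at 0.0644 to 0.899 CPM in ileum and 4.66 to 37.8 CPM in duodenum (log2 -5.59 ± 0.36). Its family members Slc19a1, for reduced folate, and Slc19a2, for thiamine, were lower by 1.35 and 0.90, and the ascorbate carrier Slc23a2 by 1.48. None of these 6 carriers had overlapping ranges.

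Iron genes were mostly lower in ileum, 10 of 17 called lower and 2 higher, and without the 5 libraries 8 and 2. The proton-coupled folate and haem carrier Slc46a1 was at 7.82 to 26.1 CPM in ileum (median 12.1) and 86.1 to 426 CPM in duodenum (median 275), a log2 difference of -4.33 ± 0.28. The iron importer Slc11a2 was lower by 0.99 ± 0.15, the ferritin heavy chain Fth1 by 1.93 ± 0.19, the metal carrier Slc39a14 by 1.0 ± 0.08 and Epas1, the hypoxia-inducible factor that drives iron uptake genes, by 1.04 ± 0.11. The reductase Cybrd1 and the iron exporter Slc40a1 were looked at outside the naming rule, after their values were seen. Slc40a1 ran from 18.6 to 73.6 CPM in ileum (median 48.2) and from 28.9 to 1560 CPM in duodenum (median 81.5), and Cybrd1 from 6.08 to 9.59 CPM in ileum (median 7.86) and from 4.52 to 103 CPM in duodenum (median 10.3). Both were called lower (adjusted p = 0.00756 and 0.0364), and neither was called without the 5 libraries (adjusted p = 0.0678 and 0.185) or with the replicate block (adjusted p = 0.0833 and 0.124). In the libraries of replicate number 1 alone Slc40a1 differed by 0.13 in the other direction (adjusted p = 0.713). For calcium and phosphate, 3 of 11 genes were higher and 4 lower, near the shares of all genes. The cytosolic calcium binding protein S100g was at 0.624 to 14.2 CPM in ileum (median 4.65) and 3.54 to 2021 CPM in duodenum (median 90.8), a log2 difference of -5.82 ± 1.17 in overlapping ranges, which was -1.67 and not called in the 12 libraries of replicate number 1 alone (adjusted p = 0.0524). The phosphate carrier Slc34a2 was at 335 to 1460 CPM in ileum (median 906) and 0.565 to 172 CPM in duodenum (median 40.3), higher by 4.41 ± 0.58 with no overlap. The vitamin D receptor Vdr was lower by 0.49 ± 0.08.

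Digestion and uptake of sugars were lower in ileum for 12 of 17 genes and higher for 1, with a median log2 difference of -1.25. Trehalase, Treh, was at 68.1 to 121 CPM in ileum and 175 to 477 CPM in duodenum (log2 -2.06 ± 0.13). The fructose carrier Slc2a5 was lower by 1.76, its relative Slc2a7 by 2.22, and the enzymes Tkfc, a fructose-handling kinase, and Fbp1, of gluconeogenesis, by 0.94 and 1.43. The gene called higher was Sis, sucrase-isomaltase, at medians of 5578 CPM in ileum and 4533 CPM in duodenum (log2 0.40 ± 0.14, adjusted p = 0.0217), and it was not called without the 5 libraries (adjusted p = 0.141). Fat absorption genes were called lower in 18 of 24 cases and higher in 3. Apoc2, an activator of lipoprotein lipase, was at 7.66 to 172 CPM in ileum (median 33.9) and 193 to 1150 CPM in duodenum (median 780), lower by 4.26 ± 0.49. The fatty acid carrier Slc27a2, the fatty acid translocase Cd36, the triglyceride synthase Dgat2 and the chylomicron assembly protein Mttp were lower by 2.32, 1.46, 1.50 and 1.45.

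The cytosolic lipid binding proteins were exchanged along the gut. Fabp1 ran from 5.61 to 349 CPM in ileum (median 29.4) and from 820 to 2267 CPM in duodenum (median 1825), a log2 difference of -5.44 ± 0.67 (adjusted p = 1.88e-06), without overlap. Fabp2 was at medians of 6456 CPM in ileum and 3039 CPM in duodenum, 0.83 ± 0.23 higher (adjusted p = 0.00497) in overlapping ranges, and was not called in replicate number 1 alone. Per length of transcript, mean levels in ileum were 8569 ± 3404 TPM, which scales counts by transcript length, for Fabp6, 7637 ± 2970 for Fabp2 and 133 ± 192 for Fabp1 (SD, n = 12). In duodenum the same means were 2.56 ± 1.87 TPM for Fabp6, 3876 ± 1398 for Fabp2 and 3992 ± 1137 for Fabp1 (SD, n = 12). Fabp6 and Fabp2 were thus the highest of these 3 genes in ileum and Fabp1 and Fabp2 in duodenum, in each case within 1 SD of each other. Sterol handling had 5 of 10 genes lower and 1 higher: the lipoprotein receptor Scarb1 was lower by 3.09 ± 0.30, at medians of 4.02 CPM in ileum and 28.4 CPM in duodenum. The gene called higher was Mylip, a ligase that degrades the LDL receptor, at 15.1 to 32.3 CPM in ileum and 3.95 to 11.6 CPM in duodenum (log2 2.10 ± 0.11).

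Peptidases were the digestive list with most members higher in ileum, 12 of 17 with 4 lower, although without the 5 libraries the counts were 8 and 4. The brush border enzymes Xpnpep2, an aminopeptidase for proline bonds, Naaladl1, a dipeptidase-like enzyme, and Mep1a, the meprin alpha chain, were at medians of 537, 2135 and 1183 CPM in ileum and 48.8, 193 and 95.1 CPM in duodenum. Their log2 differences were 3.29 ± 0.14, 3.41 ± 0.17 and 3.73 ± 0.16, without overlap. The membrane dipeptidase Dpep1 was 1.45 ± 0.12 higher. Besides Tmprss15, the neutral endopeptidase Mme was lower, at medians of 288 CPM in ileum and 1388 CPM in duodenum (log2 -2.22 ± 0.19). Of the amino acid carriers, 6 of 17 were higher and 6 lower, near the 24.9% and 24.8% of all genes, with a median log2 difference of 0.06. The glutamate carrier Slc1a1 was at 88.5 to 247 CPM in ileum and 26.5 to 52.1 CPM in duodenum (log2 2.11 ± 0.16). The cystine and basic amino acid carrier pair Slc7a9 and Slc3a1 was higher by 0.66 and 0.67, and the small neutral amino acid carriers Slc7a8 and Slc36a1 were lower by 1.50 and 2.09.

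For nucleosides and purines, 6 of 12 genes were called lower, all of them strong, and 1 higher. The pyrimidine nucleoside carrier Slc28a1 was at 0.786 to 15.4 CPM in ileum and 57.4 to 123 CPM in duodenum (log2 -3.74 ± 0.41). The purine breakdown enzymes adenosine deaminase (Ada), xanthine dehydrogenase (Xdh) and guanine deaminase (Gda) were lower by 2.62, 1.66 and 1.33, cytidine deaminase (Cda) by 1.96 and the nucleotide pyrophosphatase Enpp3 by 3.89. Ada was not called in replicate number 1 alone. Of the 4 alkaline phosphatases, 3 were called lower. Alpi, the main intestinal form, was lower by 2.32 ± 0.25, and per length averaged 232 ± 50.4 TPM in ileum and 1063 ± 600 TPM in duodenum (SD, n = 12). Akp3 averaged 1.32 ± 0.595 TPM in ileum and 860 ± 1176 TPM in duodenum. Of 20 genes of ion transport and its control, 5 were higher and 10 lower. Guca2a, which encodes guanylin, the peptide that activates guanylate cyclase C, was at 275 to 459 CPM in ileum and 25.4 to 48.9 CPM in duodenum (log2 3.39 ± 0.10, adjusted p = 4.65e-16). The short-chain fatty acid carrier Slc5a8 was at 261 to 429 CPM in ileum and 0.584 to 20.1 CPM in duodenum (log2 5.43 ± 0.53). The carbonic anhydrase Car2 was lower by 4.22 ± 0.34, the anion exchanger Slc26a6 by 0.88 and the monocarboxylate carrier Slc16a1 by 0.43.

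Metabolic lists moved in opposite directions. Cholesterol synthesis was higher in ileum for 23 of 25 genes, and the other 2 were not called, with a median log2 difference of 1.07. Of the 25 genes, 13 had ranges that did not overlap, beside 7.77% of all genes. Hmgcs1, at the head of the pathway, was at a median of 616 CPM in ileum and 173 CPM in duodenum, higher by 1.76 ± 0.12. The later enzymes Sqle, Cyp51 and Msmo1 were higher by 1.95, 1.63 and 1.44, none of them with overlapping ranges. Fatty acid oxidation and ketogenesis ran the other way, with 20 of 23 genes called lower and a median of -0.69. The peroxisomal genes Ehhadh, Acaa1b and Pex11a were lower by 1.22, 2.50 and 1.06, the mitochondrial thiolase Acaa2 by 1.68, the ketone body enzyme Bdh1 by 0.66 and the pyruvate dehydrogenase kinase Pdk4 by 3.10. Retinoid genes were called lower in 9 of 13 cases, led by the retinol binding protein Rbp2 at medians of 187 CPM in ileum and 1899 CPM in duodenum (log2 -3.25 ± 0.31). The retinal-forming enzyme Rdh7, the carotenoid oxygenase Bco2 and the retinal dehydrogenase Aldh1a3 were lower by 2.32, 1.48 and 1.71.

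Cytochromes P450 and their receptors were lower for 18 of 25 genes, 13 of them strongly, and higher for 2. Cyp1a1, the classical target of the aryl hydrocarbon receptor, was at 0.0323 to 0.814 CPM in ileum and 4.15 to 47.8 CPM in duodenum (log2 -5.84 ± 0.42), and the receptor gene Ahr was at 20.8 to 25.5 CPM in ileum and 37.8 to 50.3 CPM in duodenum (log2 -0.91 ± 0.05). Cyp2c65, Cyp2c66 and Cyp3a25 were lower by 2.03, 5.04 and 1.26, and the electron donor of these enzymes, Por, by 1.36, while reads of the Cyp2c family can be split between close copies. Cyp2u1, a fatty acid hydroxylase, was 1.62 ± 0.17 higher. Conjugation and efflux genes were lower for 21 of 30 and higher for 5. The Ugt1a entries, whose transcripts share exons and whose counts are therefore not independent, were lower by 1.60 to 1.69. The carboxylesterase Ces1f was lower by 2.29 and the glutathione transferase Gsta1, again one of close copies, by 3.52. The efflux pumps of this list went both ways, with Abcg2 higher by 0.80 ± 0.14 and Abcb1a by 1.49 ± 0.26, and Abcc2 and Abcc3 lower as given above. Abcb1a ran from 240 to 2681 CPM in ileum and from 219 to 1134 CPM in duodenum and was not called in replicate number 2 alone. In the urea and arginine list 3 of 12 genes were higher, as in all genes, and 6 lower. Arginase 2 (Arg2) was lower by 2.39 ± 0.20 and carbamoyl phosphate synthetase (Cps1) by 0.58 ± 0.08.

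**Figure D2:**
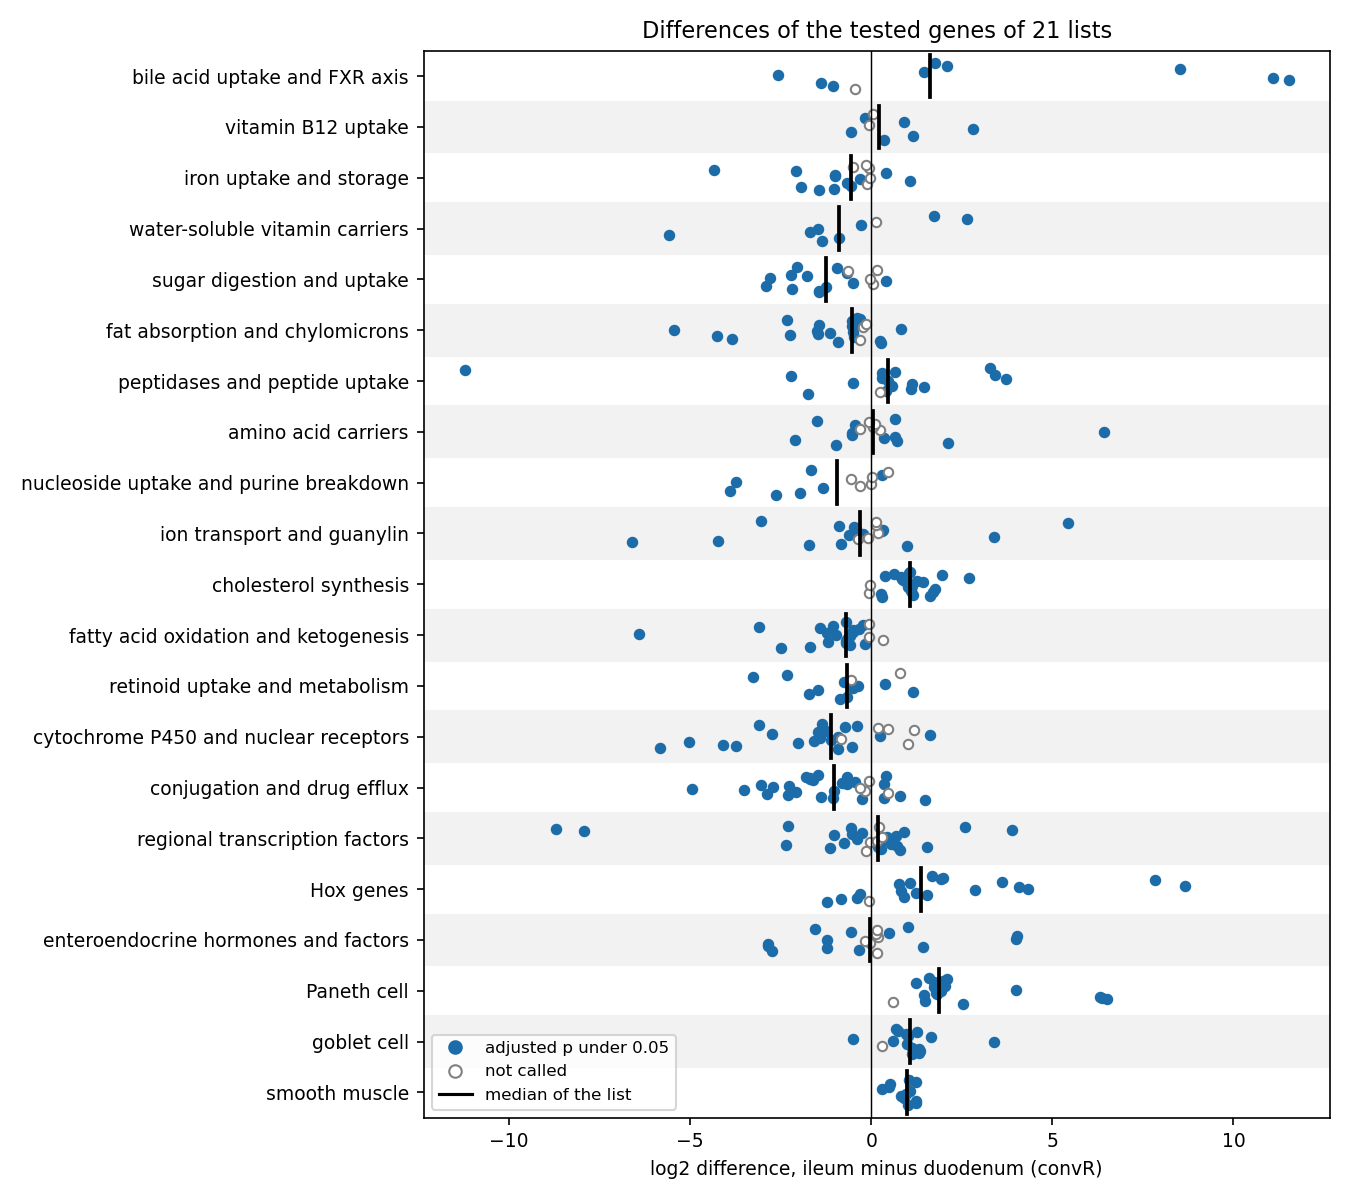
Log2 difference, ileum minus duodenum, of each tested gene of 21 lists in convR mice, with filled points for genes called at an adjusted p under 0.05, open points for those not called, and a black bar at the median of each list. The points of cholesterol synthesis (median 1.07) and Paneth cells (1.88) lie to the right, those of sugar uptake (-1.25) and P450 enzymes (-1.10) mostly to the left, and amino acid carriers lie on both sides.

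Regional transcription factors separated the tissues, 13 of 29 called higher in ileum and 11 lower. Pdx1, the factor of the pancreas and the proximal duodenum, was at 0 to 0.193 CPM in ileum (median 0.0776) and 14.2 to 97.2 CPM in duodenum (median 28.7), a log2 difference of -8.70 ± 0.48. The homeodomain factor Onecut2 was at 0.408 to 6.37 CPM in ileum (median 0.973) and 198 to 361 CPM in duodenum (median 294), a difference of -7.92 ± 0.34. Both genes were near 0 in ileum, and the highest Onecut2 value there came from ZT6 replicate 2. Gata4 was at 1.2 to 81.3 CPM in ileum (median 29.6) and 126 to 155 CPM in duodenum (median 145), lower by 2.34 ± 0.51 with no overlap. Of its relatives, Gata6 was lower by 0.75 ± 0.06 and Gata5 higher by 0.55 ± 0.08. Zfpm1, a cofactor of GATA proteins, was lower by 2.29 ± 0.19.

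On the ileum side the zinc finger factor Osr2 was at 31.2 to 48 CPM in ileum and 0.227 to 5.62 CPM in duodenum (log2 3.90 ± 0.32). The forkhead factors Foxa1 and Foxa3 were higher by 1.55 and 0.70, the steroidogenic factor relative Nr5a2 by 0.91, and the caudal factor Cdx1 by 0.79 ± 0.04. Cdx2 was at medians of 116 CPM in ileum and 96 CPM in duodenum, higher by 0.28 ± 0.09 (adjusted p = 0.0132), and was not called without the 5 libraries (adjusted p = 0.178). The nuclear receptor Hnf4a was 0.36 higher and its relative Hnf4g 0.39 lower. Maf, a leucine zipper factor, was higher by 0.68 ± 0.12.

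Of 39 Hox genes, 20 passed the filter on low counts, and 15 of these were called higher in ileum and 4 lower. The filter keeps genes that are expressed in at least one tissue, so that genes near 0 in duodenum, such as Hoxb9 and Hoxc8, passed through the ileum alone and could only be higher there. Hoxb9 was at 0.493 to 40.4 CPM in ileum (median 7.23) and 0 to 0.119 CPM in duodenum, and Hoxc8 at 4.14 to 8.07 CPM in ileum and 0 to 0.111 CPM in duodenum, on 11 and 10 duodenum reads in all. Within the Hoxb cluster the difference was -0.30 for Hoxb2, 1.24 for Hoxb3, 0.81 for Hoxb4, 2.87 for Hoxb5, 4.33 for Hoxb6, 4.08 for Hoxb7 and 8.66 for Hoxb9, with steps down at Hoxb4 and Hoxb7. Hoxb8 did not pass the filter. The ileum levels behind these values were uneven. Hoxb6 was at 25.2 to 32.5 CPM in the 3 ileum libraries with Gata4 under 10 CPM and at 1.74 to 16.9 CPM in the other 9. In the Hoxc cluster the difference was 0.78 for Hoxc4, 1.08 for Hoxc5, 3.61 for Hoxc6 and 7.82 for Hoxc8. The Hoxa cluster changed sign within itself, from -1.23 for Hoxa2, -0.82 for Hoxa4 and -0.40 for Hoxa5, by way of 0.90 for Hoxa6, to 1.53 for Hoxa7. The 3 tested Hoxd genes, Hoxd3, Hoxd4 and Hoxd8, were all higher, by 1.93, 1.97 and 1.67. Hoxb2 and Hoxb4, with adjusted p = 0.0287 and 0.0339, were not called without the 5 libraries (0.202 and 0.153), and Hoxa3 was not called at all (log2 -0.07). Hoxa9 and Hoxa10 did not pass the filter, and lay at medians of 0 CPM in ileum and at 0.396 and 0.228 CPM in duodenum.

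**Figure D3:**
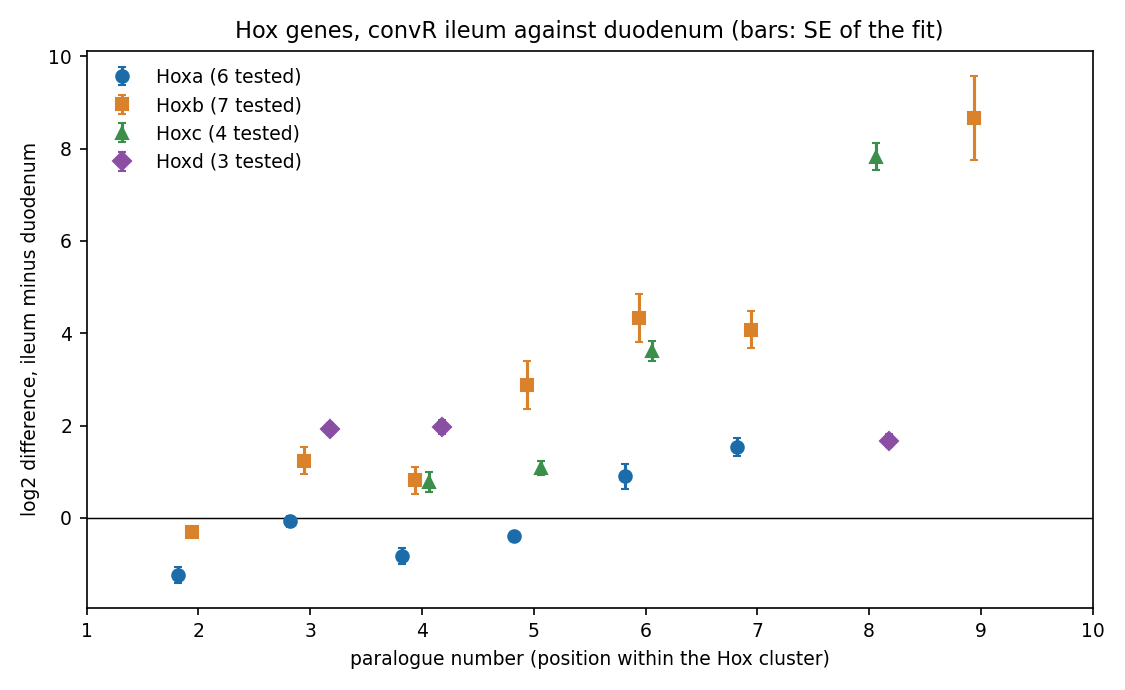
Log2 difference, ileum minus duodenum, of the 20 tested Hox genes against the paralogue number, with a marker for each cluster and bars for the standard error of the fit. The highest values are those of Hoxb9 (8.66) and Hoxc8 (7.82), the Hoxa and Hoxb values do not climb at every step, and those of Hoxd lie between 1.67 and 1.97 for the 3 genes tested.

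The ileum libraries varied widely among themselves in the same regional genes. In 3 of them, the first replicates of ZT6, ZT14 and ZT22, Gata4 was at 1.2 to 2.22 CPM, and in the other 9 at 19.2 to 81.3 CPM. In those 3 libraries Plb1 was at 2.37 to 8.92 CPM, lactase (Lct) at 2.84 to 3.86 CPM and Hoxb9 at 33.1 to 40.4 CPM. In the other 9, Plb1 was at 320 to 1208 CPM, Lct at 47 to 1044 CPM and Hoxb9 at 0.493 to 20.3 CPM. Within these 9 libraries 8 relations with Gata4 were computed on log values. The genes were chosen after their values in these libraries were seen and the 9 libraries by their Gata4 level, so the correlations are given as a description, with no test. Hoxb9 ran against Gata4, with Pearson's r = -0.94 and Spearman's rho = -0.93, and so did Slc10a2, with r = -0.86 and rho = -0.92. Lct and Apoc2 ran with it, at r = 0.88 and rho = 0.92 and at r = 0.97 and rho = 0.93. Without the 2 libraries farthest from the median of Gata4, r was -0.96 for Hoxb9, -0.78 for Slc10a2, 0.82 for Lct and 0.96 for Apoc2, over 7 libraries. Fabp6 gave r = -0.75 and rho = -0.78, and r = -0.63 without those 2. For Plb1, Fabp1 and the apolipoprotein Apoa4, r was 0.72, 0.81 and 0.77, and rho was 0.63, 0.67 and 0.68. Without the 2 farthest libraries, r was 0.80 for Plb1, 0.40 for Fabp1 and 0.35 for Apoa4, so that the last 2 relations rested on those libraries.

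The replicate number moved with these values. The 3 libraries with little Gata4 all had number 1, and of the 9 others 6 had number 2 and 3 had number 1, too few for a value of their own. Within the 6 of number 2, r was -0.97 for Hoxb9, -0.93 for Slc10a2, -0.82 for Fabp6, 0.90 for Lct, 0.99 for Apoc2, 0.66 for Plb1, 0.95 for Fabp1 and 0.79 for Apoa4. Fabp1 was at 5.61 to 27.9 CPM in the ileum libraries of number 1 and at 30.9 to 349 CPM in those of number 2. What the number stands for is not given in the labels, and its part in these relations was not tested beyond the values within number 2. The differences between the tissues held within each number: Fabp6 was higher by 11.09 in number 1 and by 12.41 in number 2, Slc10a2 by 8.53 and 8.27, and Plb1 by 7.37 and 10.65. Gata4 was lower by 4.02 in number 1 and by 1.87 in number 2, and Fabp1 by 7.06 and 4.92. The duodenum libraries also varied, in genes picked after their values were seen. In the second replicates of ZT10, ZT18 and ZT22, Pdx1 was at 71.9 to 97.2, Akp3 at 2743 to 4581 and S100g at 1044 to 2021 CPM. In the other duodenum libraries they were at 14.2 to 38, 48.8 to 1218 and 3.54 to 356 CPM. Of these 3 libraries only ZT22 replicate 2 was left out in the repeat without the 5 libraries.

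**Figure D4:**
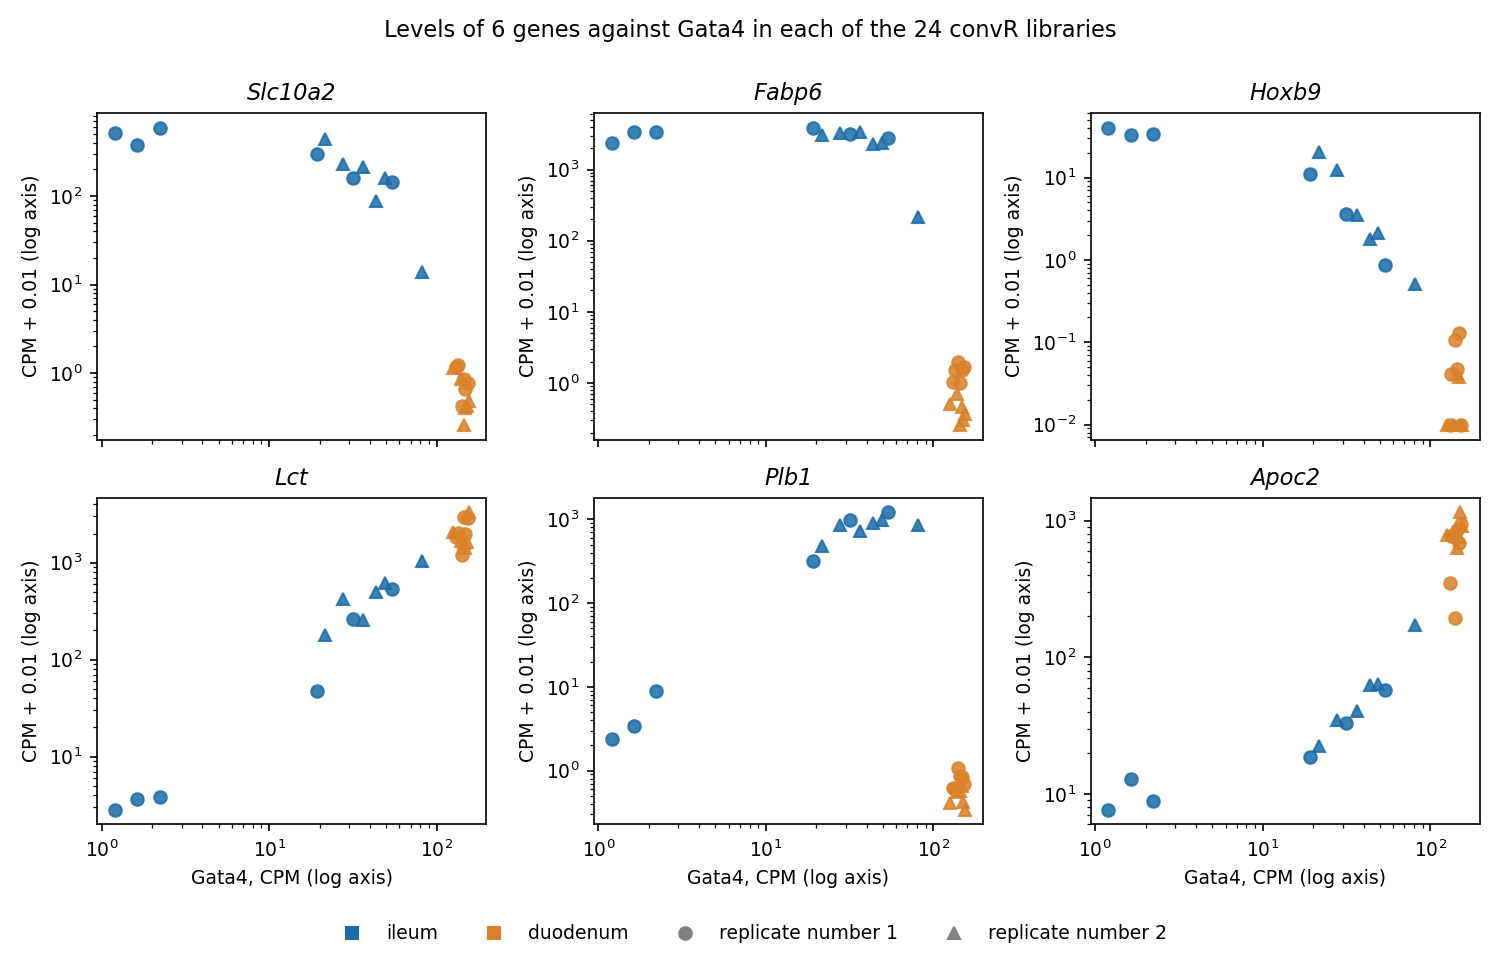
CPM of 6 genes against CPM of Gata4 in each convR library, on log axes with 0.01 added on the vertical one, ileum in blue and duodenum in orange, circles for replicate number 1 and triangles for number 2. In ileum, Hoxb9 and Slc10a2 run down and Lct and Apoc2 run up as Gata4 increases from 19.2 to 81.3 CPM, and 3 libraries of number 1 lie apart at 1.2 to 2.22 CPM.

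Most Paneth and goblet cell genes were higher in ileum. Paneth cell genes were called higher in 19 of 20 cases, all of them strong, with a median log2 difference of 1.88. Lysozyme (Lyz1) was at 5029 to 9334 CPM in ileum and 838 to 2283 CPM in duodenum (log2 2.05 ± 0.16), and the defensin-processing protease Mmp7 was higher by 1.79 ± 0.13. The alpha-defensins divided into entries such as Defa24, higher by 1.83, and entries such as Defa20, Defa21 and Defa22, higher by 6.31 to 6.51, with the caution on near-identical copies given above. Goblet cell genes were higher for 14 of 16: Atoh1, the factor of the secretory lineage, was at 26.9 to 33.3 CPM in ileum and 8.2 to 15.1 CPM in duodenum (log2 1.32 ± 0.08), Spink4 was higher by 1.26 and Bcas1 by 1.35. The exception was the membrane mucin Muc13, lower by 0.51 ± 0.14. Tuft cell genes were lower in 6 of 12 cases and higher in 2, with the channel Trpm5 lower by 0.67 and the leukotriene synthase Ltc4s by 1.95, whereas the taste G protein Gnat3 was higher by 2.75 at 0.558 to 1.33 CPM in ileum and 0 to 0.258 CPM in duodenum. Stem cell genes differed less. The Wnt target Lgr5 was 0.90 ± 0.09 higher and Axin2 0.85 ± 0.09 higher, 5 of 13 genes were called, all higher, and the crypt gene Olfm4 was not (log2 -0.20, adjusted p = 0.172). Of 25 cell cycle genes, 8 were called higher and 1 lower, none of them strongly, beside 24.9% and 24.8% of all genes. Without the 5 libraries the cell cycle counts were 6 and 1.

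Gut hormones changed by kind, with 5 of 19 tested genes of the endocrine list higher in ileum and 8 lower. Neurotensin (Nts) was at 56.3 to 97.7 CPM in ileum (median 75.6) and 1.55 to 7.97 CPM in duodenum (median 5.02), a log2 difference of 4.00 ± 0.20. Peptide YY (Pyy) was at 10.9 to 21.8 CPM in ileum and 0.0737 to 3.71 CPM in duodenum (log2 4.03 ± 0.49), and Gcg, the precursor of GLP-1, was 1.44 ± 0.17 higher. These are hormones known from the distal gut, and none of the 3 overlapped between tissues. Gip, the incretin of the proximal gut, was at 0.946 to 14.6 CPM in ileum (median 6.28) and 31.4 to 60.3 CPM in duodenum (median 48.7), lower by 2.85 ± 0.33. Cholecystokinin (Cck) and ghrelin (Ghrl) were lower by 2.73 ± 0.21 and 2.85 ± 0.16, and the serotonin enzyme Tph1 by 1.55 ± 0.19. Secretin (Sct) was higher by 0.49 ± 0.17 (adjusted p = 0.0253), at medians of 23.5 CPM in ileum and 16.3 CPM in duodenum, and was not called in replicate number 2 alone. The granin Chgb was lower by 1.23 and the endocrine progenitor factor Neurog3 by 1.21, and Neurod1 and Pax6 were not called, although Pax6 was with the replicate block (log2 0.21, adjusted p = 0.0387). Vip, a peptide of enteric neurons, was 1.01 ± 0.15 higher.

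Lymphocyte and macrophage lists had more genes lower than higher in ileum, while the MHC class II, smooth muscle, nerve and fat cell lists had more genes higher. T cell and intraepithelial lymphocyte genes were lower in ileum for 12 of 22 and higher for 4, B and plasma cell genes lower for 9 of 16, and macrophage and dendritic cell genes lower for 12 of 15 and higher for 1. Igha, the heavy chain of IgA, was at 1416 to 4379 CPM in ileum (median 2340) and 4022 to 9675 CPM in duodenum (median 6173), lower by 1.39 ± 0.17, and Pigr, the epithelial IgA carrier, was at 2007 to 3287 CPM in ileum and 3778 to 6562 CPM in duodenum, lower by 1.14 ± 0.10. The chemokine receptor Cx3cr1 was lower by 0.28 ± 0.04 and the integrin Itgax by 0.82 ± 0.08. MHC class II genes were called higher in 7 of 11 cases: H2-Aa was at 467 to 908 CPM in ileum (median 700) and 133 to 653 CPM in duodenum (median 236), higher by 1.31 ± 0.22. All 12 smooth muscle genes were higher, with Acta2 up by 1.02 ± 0.08 and Tagln by 1.24 ± 0.09. Their summed level was 2319 to 3302 CPM in ileum and 1235 to 2251 CPM in duodenum. Genes of enteric neurons and glia were called higher in 9 of 14 cases and summed to 32.3 to 47.9 CPM in ileum and 18.8 to 35 CPM in duodenum. Fat cell genes were higher for 8 of 9, with a median log2 difference of 2.18, Adipoq up by 2.41 ± 0.39 and Cidec, which enterocytes also use for lipid droplets, lower by 1.13 ± 0.21. Their summed level was 86.9 to 210 CPM in ileum and 63.5 to 156 CPM in duodenum. These muscle, nerve and fat genes moved with the tissue in the same libraries as the epithelial lists above, and their part in those results was not tested.

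No gene's ileum-to-duodenum difference was called as changing with the time of day. edgeR's quasi-likelihood test of tissue by time called 0 of 18164 genes, with 366 at an unadjusted p under 0.05 (2.01%), and DESeq2's likelihood ratio test called 25, with 434 at an unadjusted p under 0.05. With the replicate block 1 gene was called, with 797 at an unadjusted p under 0.05. The test rested on 2 libraries for each tissue and time. In simulated counts with a tissue difference at ZT14, ZT18 and ZT22 only, edgeR's test recovered 0% of log2 changes of 0.5. It recovered 28.4% of changes of 1 and 77.3% of changes of 2, so that smaller changes with time would mostly be missed. The smallest p was that of the sulfatase Arsg (adjusted p = 0.169), whose difference was -2.78 at ZT2, -1.17 at ZT6, -0.61 at ZT10, -1.26 at ZT14, -2.97 at ZT18 and -2.25 at ZT22. Dgat2 differed by -1.07 at ZT2, -0.20 at ZT6, -2.16 at ZT10, -2.51 at ZT14, -1.67 at ZT18 and -1.36 at ZT22 (adjusted p = 0.743). The clock repressors Nr1d2 and Cry1 were also among the 8 genes with the smallest p, and neither passed. Over all times, 1 of 19 clock genes was called higher and 2 lower: Cry2 by 0.38, and Hlf and Usp2 by -0.98 and -0.51.

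Most of the strong differences had the same direction in GF mice. In GF mice, compared in the same way, 11918 of 17909 genes tested were called (66.5%), 2582 of them strongly (14.4%). Of the 1539 strong convR genes tested in GF mice, 1489 (96.8%) were called in the same direction there and 4 (0.26%) in the opposite one. Of the 2488 strong GF genes tested in convR mice, 2275 (91.4%) were called in the same direction. The difference between ileum and duodenum was itself called different between convR and GF mice in 2426 of 19000 genes (12.8%), more positive in convR for 1537 (8.09%) and more negative for 889 (4.68%). The share on the positive side was 63.4%, and it was 44.3% when libraries were scaled by size alone. By edgeR's quasi-likelihood test none of the 11 bile acid genes tested was among them, and none had an unadjusted p under 0.05. Fabp6 averaged 2700 ± 917 CPM in convR ileum, 0.907 ± 0.587 in convR duodenum, 2815 ± 1054 in GF ileum and 1.08 ± 0.9 in GF duodenum (SD, n = 12, 12, 11 and 12). The log2 differences between the tissues were 11.52 in convR and 11.37 in GF mice (difference 0.17 ± 0.57, adjusted p = 0.889). For Gata4 they were -2.34 in convR and -2.67 in GF mice (difference 0.32 ± 0.59, adjusted p = 0.788).

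Most T cell and MHC class II genes had differences between the tissues that were not the same in convR and GF mice. Of 22 T cell genes, 19 had a difference that was called more positive in convR mice, beside 8.09% of all genes. Of 16 B and plasma cell genes, only 2 were called more positive and 1 more negative, beside 8.09% and 4.68% of all genes. Cd8a averaged 13.3 ± 3.99 CPM in convR ileum, 20.7 ± 4.89 in convR duodenum, 0.976 ± 0.537 in GF ileum and 14.1 ± 1.88 in GF duodenum. The ileum was thus lower by 0.66 in convR and by 3.86 in GF mice, and the 2 differences were 3.22 ± 0.28 apart (adjusted p = 1.49e-10). Cd7, Zap70, Il2rb and Ctsw followed the same pattern, with differences of differences of 2.89, 2.41, 2.23 and 2.20. For 7 of 11 MHC class II genes the direction turned. H2-Aa averaged 662 ± 134 CPM in convR ileum, 276 ± 151 in convR duodenum, 58.4 ± 12.4 in GF ileum and 103 ± 24.8 in GF duodenum, with log2 differences of 1.31 in convR and -0.84 in GF mice (2.13 ± 0.27 apart, adjusted p = 2.53e-07). The IgA carrier Pigr averaged 2335 ± 344 CPM in convR ileum, 5139 ± 840 in convR duodenum, 632 ± 64.4 in GF ileum and 4006 ± 708 in GF duodenum, lower by 1.14 in convR and by 2.64 in GF mice (1.51 ± 0.12 apart, adjusted p = 1.43e-11).

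Some absorptive and endocrine genes also had unequal differences in convR and GF mice. Slc5a8 averaged 324 ± 53.8 CPM in convR ileum, 7.85 ± 7.15 in convR duodenum, 297 ± 59.8 in GF ileum and 0.166 ± 0.119 in GF duodenum, so that its difference was 5.43 in convR and 10.85 in GF mice. Mgat4c moved likewise, by 6.52 in convR and 9.41 in GF mice. The autophagy gene Atg16l2 was higher by 0.56 in convR and by 2.44 in GF mice (-1.88 ± 0.17 apart, adjusted p = 1.49e-10). Slc46a1 was lower by 4.33 in convR and by 6.39 in GF mice, Cyp3a25 by 1.26 and 2.78, and somatostatin (Sst) by 0.57 and 2.09. In the cholesterol list 9 of 25 genes had a difference that was called smaller in convR mice, beside 4.68% of all genes. Among them was Cyp51, at a difference of differences of -0.74. Gpnmb, a glycoprotein of macrophages, was higher by 0.80 in convR and lower by 1.77 in GF mice. The interferon receptor chain Ifnar2 and the coiled-coil protein Ccdc88b were lower by 0.97 and 0.94 in convR and by 2.24 and 2.11 in GF mice.

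**Figure D5:**
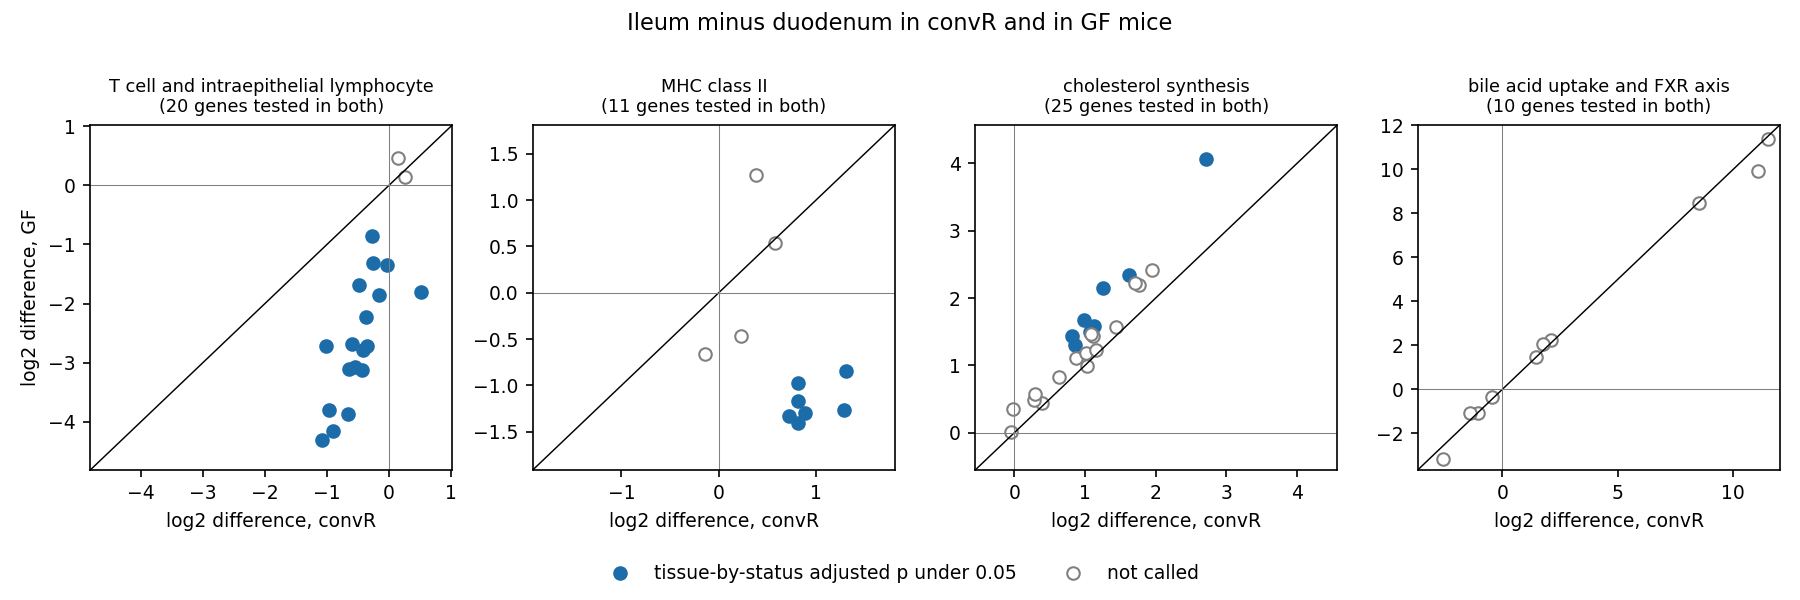
Log2 difference, ileum minus duodenum, in GF mice (vertical axis) against that in convR mice (horizontal axis) for the genes of 4 lists tested in both, with filled points where the 2 differences were called different and a line of equality. The called T cell genes lie below the line, the 7 called MHC class II genes lie at positive values in convR and negative values in GF mice, and bile acid genes lie along the line.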

How the data were processed

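Gene expression was measured in 47 libraries of duodenum and ileum from convR and GF mice. The deposited table holds raw exon counts for 38087 genes, made by the authors from paired reads of 100 bases. STAR 2.4.0i and the build mm10 are named in the submitters' processing notes, and how reads were assigned to genes, by which annotation and with which strand setting, is not given in the sources used here. Of the 38087 gene IDs, 36308 were matched to GENCODE M21 (GRCm38, the same assembly as mm10), and symbols, lengths and coordinates are from there.

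Counts were scaled by TMM and filtered by filterByExpr at 10 counts. They were tested with edgeR 4.0.16 (R 4.3.3, glmQLFit with robust fitting, glmQLFTest). The main model held time as a factor and tissue over the 24 convR libraries. Tissue by time was tested in the same libraries, and tissue by status in all 47. DESeq2 1.42.0 served as an alternative. Figures and summaries were made with python 3.11.15. The fits were tested on simulated counts with known changes. Changes of 0.5, 1 and 2 log2 units were recovered in 68.7%, 95.5% and 95.5% of cases for tissue. For tissue by status the shares were 50.7%, 71.6% and 100%, and those for tissue by time are given with that result. TPM used the exon length of each gene.

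Libraries were grouped by their titles. Libraries of the same number and time deviated together, with correlations across genes of 0.273 to 0.595 between ileum and duodenum at the 6 times. A shift shared by all libraries of a number would give such correlations too. They therefore cannot show that libraries of a number and time are paired. The main model held no term for the number. A fit with a term for each number and time, the replicate block, called 9932 genes in place of 9015. The 2 libraries of a time and tissue differed far beyond sampling noise (chi-square per degree of freedom 44.6 to 134), and each was counted as a sample. Genes named were, first, the 10 largest called differences in each direction with a mean of at least 5 CPM. These had to keep their sign at all 6 times and be called also without the 5 libraries that stood apart. Predicted genes, pseudogenes, immunoglobulin and T cell receptor segments, and acinar, stomach and Brunner gland genes were left out of them. Also named were members of the bile acid, B12, transcription factor, Hox and endocrine lists. The 6 smallest p-values and up to 2 opposite genes of every other list were added, and the 8 and 10 smallest p-values for time and status. Some genes that this rule names are not reported here. The libraries, lists and genes were chosen with earlier results of these data known. Alternatives were other scalings, no filter, no time term, a replicate block, and libraries left out.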

Additional observations from a re-analysis of the deposited data

Results flagged for a closer look

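For 55 of the named genes the difference between ileum and duodenum was itself different between convR and GF mice, by edgeR's quasi-likelihood test of tissue by status at an adjusted p under 0.05. Values below are the log2 difference of ileum minus duodenum in convR mice minus the same difference in GF mice. They were positive for 40 genes and negative for 15. Some of the named genes had been chosen for small p-values in this same test, so these counts are a description only. Over all 19000 genes tested, 12.8% were called, and 63.4% of the called genes were positive. With libraries scaled by size alone, 44.3% of the called genes were positive.

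Among lymphocyte and immune genes the value was 3.22 for Cd8a, 2.89 for Cd7, 2.41 for Zap70, 2.23 for Il2rb, 2.20 for Ctsw, 2.13 for H2-Aa, 2.55 for Gpnmb, 1.27 for Ifnar2, 1.16 for Ccdc88b, 0.81 for Itgax and 1.0 for Igha. In these genes the ileum stood lower against the duodenum without a flora. The IgA carrier Pigr was at 1.51 and Saa1 at 3.67, while Duox2 was at -3.04. The called iron and vitamin uptake genes among those named were positive as well. Values were 2.72 for Cybrd1, 2.05 for Slc46a1, 1.76 for Slc11a2, 1.72 for Slc19a3, 0.82 for Epas1, 0.71 for Slc19a1, 0.67 for Slc5a6, 0.62 for Slc19a2 and 0.61 for Slc23a2. In the whole iron list 5 of 17 genes were called positive and 2 negative, beside 8.09% and 4.68% of all genes. Fat and purine genes gave 1.55 for Cd36, 1.06 for Slc27a2, 1.01 for Dgat2, 0.98 for Xdh and 0.81 for Gda, and Cyp3a25 gave 1.49.

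Endocrine genes were at 1.50 for Sst, 0.70 for Ghrl, 0.70 for Tph1 and 0.55 for Chgb. Regional factors were at 0.97 for Hoxd4, 0.86 for Hoxd3, 0.63 for Hoxd8 and 0.49 for Gata6. Smaller positive values were those of Kdr (0.73), Ahr (0.49), Slc26a6 (0.39) and Vdr (0.37).

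The largest negative value was that of Slc5a8, at -5.44, followed by Mgat4c at -2.96 and Slc34a2 at -2.57 besides Duox2. Negative values were also found for Atg16l2 (-1.88), Slc28a1 (-1.84), Defa22 (-1.20), Mmp7 (-0.93), Rdh7 (-0.91), Cyp51 (-0.74), Lgr5 (-0.53), Mylip (-0.52), Tagln (-0.38), Axin2 (-0.36) and Slc16a1 (-0.27). Without the 9 libraries that stood apart, 39 of the 55 were called with the same sign, and the 16 not called included Cybrd1, Slc11a2, Slc19a1, Slc19a3, Slc23a2, Slc34a2, Rdh7 and Hoxd8. With scaling by library size alone 51 were called with the same sign, and with the replicate block 53.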

How the results depend on the processing

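The count of genes called between ileum and duodenum was 9015 and stayed between 8366 (no time term) and 9932 (replicate block) in the 10 other fits of all genes with other scalings, filters, tests or libraries left out, with 9108 by DESeq2. Leaving out each of the 24 libraries in turn gave 8590 to 9273 calls, 4125 to 4624 higher, 4308 to 4793 lower, and 764 to 860 strongly higher and 862 to 947 strongly lower. Replicate number 1 alone gave 6762 calls and number 2 alone 8147. Without a filter on low counts 31759 genes were tested and 1348 were strongly lower, in place of 882. With libraries scaled by size alone, 57.5% of called genes were higher in place of 50.1%, the median of all genes being 0.057 in place of 0.008. Tissue by time called 0 genes, 25 by DESeq2's likelihood ratio test (chosen after seeing the data), 3 without the filter and 1 with the replicate block. Differences called more positive in convR than in GF mice numbered 1537, and 1009 with scaling by size alone. Tissue by status called 2924 genes with the replicate block and 2415 without 9 libraries that stood apart, in place of 2426.

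Of the 214 results for single genes, 194 kept direction and call in every fit that tested them. Slc40a1 was the only one to turn, at 0.13 in number 1 alone. Apart from the changes given beside the results, Cry2 and Hlf were not called without a time term, Sct without the filter, and Hoxa6, Muc13, Zap70, Cdx2 and Sis in number 1 alone, Hoxa5 and Gpnmb in number 2 alone. Cybrd1, Hoxb2 and Hoxb4 lost their calls when any of several single libraries was left out. The replicate block changed 4 of these calls, those of Abcb11, Pax6, Slc40a1 and Cybrd1, and no other. The cause of these changes was not tested.

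Limits: strand and counting settings are not known, and overlapping or near-identical genes can share reads. The test of tissue by time rests on 2 libraries at each time and tissue. The libraries do not separate epithelium from the rest of the gut wall, and muscle and fat genes differed between the tissues. The CPM of a gene depends on all others in its library, which matters for the duodenum libraries with much pancreas or stomach RNA.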

Other observations

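Of the antimicrobial genes, 8 of 20 were called higher in ileum and 5 lower in convR mice, beside 24.9% and 24.8% of all genes, and 6 and 6 without the 5 libraries. Duox2, an epithelial hydrogen peroxide producer, was at 174 to 646 CPM in ileum (median 303) and 9.02 to 370 CPM in duodenum (median 50.4), higher by 2.34 ± 0.46 in overlapping ranges. The acute-phase protein gene Saa1 was at 4.34 to 34.1 CPM in ileum and 0.17 to 3.13 CPM in duodenum, higher by 3.79 ± 0.39, and its reads can be shared with close copies. In GF mice the tissues differed in Saa1 by 0.17 (adjusted p = 0.732). Lactoferrin (Ltf) was lower by 1.72 ± 0.35, at medians of 0.692 CPM in ileum and 1.95 CPM in duodenum. Vascular and stromal genes were divided, 6 of 14 higher and 6 lower. The endothelial receptor Kdr was at 10.8 to 24.6 CPM in ileum and 30.7 to 43.9 CPM in duodenum, lower by 1.01 ± 0.08. The matrix proteoglycans Dcn and Lum were higher by 0.73 ± 0.07 and 1.11 ± 0.09, with no overlap in any of the 3.

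In the ileum libraries Fabp6 was at 2388 to 3890 CPM in those of replicate number 1 and at 212 to 3353 CPM in those of number 2, and in duodenum at 0.995 to 1.96 CPM in number 1 and 0.25 to 0.681 CPM in number 2, without overlap between the numbers in duodenum.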
